A study of Mus musculus with 6 samples.

Results

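The genes described here are the solute carriers expressed in newborn mouse epidermis, read from RNA-seq of 6 libraries. They are the rows of the deposited table whose symbol starts with Slc and a digit and whose mean over the 6 libraries is at least 1 FPKM (fragments counted for a gene, divided by its length and by the size of the library). Of 326 such rows, 207 reached that mean and 119 did not, and 7 of the 207 (Slc45a2, Slc24a5, Slc27a4, Slc19a2, Slc2a1, Slc16a3 and Slc7a11) were left out by name, which leaves 200 of 17025 genes. The members were chosen by their mean FPKM over all 6 libraries, so that level is given as a description only. Just inside the limit lay Slc38a3 (1.04 FPKM), Slc4a4 (1.11 FPKM), Slc5a3 (1.12 FPKM) and Slc25a45 (1.20 FPKM), and just outside it Slc16a7 (0.999 FPKM), Slc41a3 (0.926 FPKM), Slc15a1 (0.887 FPKM) and Slc23a4 (0.882 FPKM).

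All libraries came from epidermal cells sorted for integrin α6, the surface receptor of basal keratinocytes, on the day of birth (postnatal day 0). Animals labelled control had the genotype K14Cre,Ash2lF/+, and those labelled cKO (conditional knockout) K14Cre,Ash2lF/F, so both groups carry the Cre recombinase and at least 1 floxed Ash2l allele. The keratin 14 promoter drives Cre in basal keratinocytes and their progeny. Each group had 3 libraries of 31578875 to 36027550 fragments, and the labels do not say whether different animals gave them; p-values therefore reflect only library-to-library spread, which may be technical. By its title the series concerns how ASH2L, a subunit of histone H3 lysine 4 methyltransferase complexes, acts in epidermal differentiation.

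The targeted gene went against the labels. Ash2l stood at 12.4, 18.1 and 15.9 FPKM under the labels control 1, 2 and 3, and at 30.9, 29.5 and 22.9 FPKM under the labels cKO 1, 2 and 3 (difference of mean log2(FPKM + 1) 0.81, SE 0.19, limma adjusted p = 0.0240). A gene total cannot show the loss of a floxed exon. Every direction below is therefore a direction between labels: libraries are called control 1 to 3 and cKO 1 to 3 by their labels, and where 3 values stand against 3, they are in that order. The library labelled cKO 3 stood apart: its median-of-ratios scaling factor was 0.844 against 0.977 to 1.09 in the other 5, its summed fibroblast markers reached 288 FPKM against 892 and 1003 in the other cKO libraries, and its spinous markers 70215 against 36393 and 36912 FPKM. Spinous markers summed to 5028 to 6998 FPKM under the control label and 7 of 9 were called higher in cKO. Sbsn (-0.43) and Dsc1 (0.01) were not called. Krt1 and Krt10 made up most of the spinous sums, with 26575 and 36869 FPKM in cKO 3. Of the other spinous markers, all but Krtdap (3738 against 3828 and 3465 FPKM) were also highest in cKO 3 among the cKO libraries. All 13 melanocyte markers were lower, with sums of 3261 to 3747 FPKM and 194 to 451 FPKM, none of them at 0 in every library. The 10 fibroblast markers had a median difference of 0.86, with Vim lower (a mean of 1323 against 329 FPKM), Sox18 higher and 8 not called. Vim made up most of their sums under the control label, and the other 9 summed to 109, 195.1 and 387 FPKM against 528, 493 and 176 FPKM, with overlap. Schwann cell markers summed to 187 to 267 against 78.1 to 109 FPKM. Of 8 basal markers Krt15 was higher (2.23), Itgb4 lower (-1.70) and 6 not called, with a median of -0.52. Itga6, the gene of the sorted surface marker, read 162, 78.8 and 72.0 FPKM against 53.6, 52.98 and 19.7 FPKM, without overlap and not called (-1.32, SE 0.44, adjusted p = 0.0710). In bulk libraries fewer cells of a type and less RNA per cell cannot be told apart, and the part of these shifts in the results below was not tested.

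Solute carriers are membrane proteins that move small molecules by following or coupling to gradients, rather than by splitting ATP themselves. They are numbered by sequence family, and most families handle a recognisable kind of cargo: amino acids, sugars, metal ions, inorganic ions, vitamins, or the metabolites that mitochondria exchange with the cytosol. In the epidermis they feed dividing basal cells, supply the substrates of the lipid barrier, and carry the zinc and copper that its enzymes need.

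The promoter stretches of 4 genes are shown first. On the log2(FPKM + 1) scale, Slc38a4 and Slc7a8 had the largest rise and the largest fall among the members with a promoter window at hand. Slc31a2 and Slc22a4 are metal and organic cation carriers called higher, and no fixed rule picked them from the members called higher. Windows are from RefSeq on GRCm38.p6, another build than the authors' GRCm39. Each stretch runs 5′ to 3′ on the gene's own strand, from 250 to 61 bases before the start, and capitals mark matches to the metal response element (TGCGCNC or TGCACNC) or the E-box (CACGTG), searched on both strands. No stretch held the composite amino acid response element (TGATGNAA), which says only that these letters are not in this window.
Slc38a4, chr15:97056017-97056206, minus strand: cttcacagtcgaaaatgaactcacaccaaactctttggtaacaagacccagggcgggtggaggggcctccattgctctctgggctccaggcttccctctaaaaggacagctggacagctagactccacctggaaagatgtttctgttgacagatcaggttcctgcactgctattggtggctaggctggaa
Slc31a2, chr4:62286179-62286368, plus strand: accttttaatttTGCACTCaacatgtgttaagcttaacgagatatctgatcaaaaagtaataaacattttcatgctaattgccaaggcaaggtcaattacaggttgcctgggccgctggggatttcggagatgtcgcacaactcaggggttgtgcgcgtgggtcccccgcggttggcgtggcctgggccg
Slc22a4, chr11:54028165-54028354, minus strand: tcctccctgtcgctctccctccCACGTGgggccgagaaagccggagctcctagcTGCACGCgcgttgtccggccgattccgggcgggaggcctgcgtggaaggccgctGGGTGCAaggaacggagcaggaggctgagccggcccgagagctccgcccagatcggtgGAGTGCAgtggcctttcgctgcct
Slc7a8, chr14:54781947-54782136, minus strand: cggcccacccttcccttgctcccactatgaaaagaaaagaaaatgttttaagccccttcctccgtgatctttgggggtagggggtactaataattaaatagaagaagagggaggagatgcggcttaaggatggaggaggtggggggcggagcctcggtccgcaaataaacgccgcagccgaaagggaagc
The Slc22a4 stretch held 3 metal element matches, starting 196, 142 and 84 bases before the start, and 1 E-box at 228, and the Slc31a2 stretch 1 metal element match at 238. None of these matches overlapped another. Over the 27025 genes of the promoter table the same 190 bases held the metal element in 15.7%, the E-box in 4.06% and the amino acid element in 2.64%. Over the 9318 of them that were also among the genes tested, the shares were 22.3%, 5.77% and 1.46%. The whole windows run on to 50 bases after the start. Over their full length Slc7a8 also held the metal element and Slc31a2 the E-box, as did 36.9% and 10.5% of the genes tested. Of the 149 members with a window, 36.2% held the metal element and 14.8% the E-box over that length. Slc38a4 has 3 windows, of which only the first was searched and shown. Only 149 of the 200 members (74.5%) had a window, which is too few for a comparison of motif shares or base composition between members that rose and members that fell, and none is given.

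Of the 200 genes, 14 were higher and 37 lower under the cKO label than under the control label (limma on log2(FPKM + 1), Benjamini-Hochberg adjusted p under 0.05 over the 11603 genes tested). Higher calls made up 7% of the members against 5.87% of all genes tested, and lower calls 18.5% against 13.6%. The groups did not overlap, with cKO above, in 22 members (11%, against 12.0% of all genes) and, with cKO below, in 62 (31%, against 30.9%). The median difference, as labelled cKO minus labelled control on the log2(FPKM + 1) scale, was -0.22 for the members and -0.17 for all genes.

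**Figure D1:**
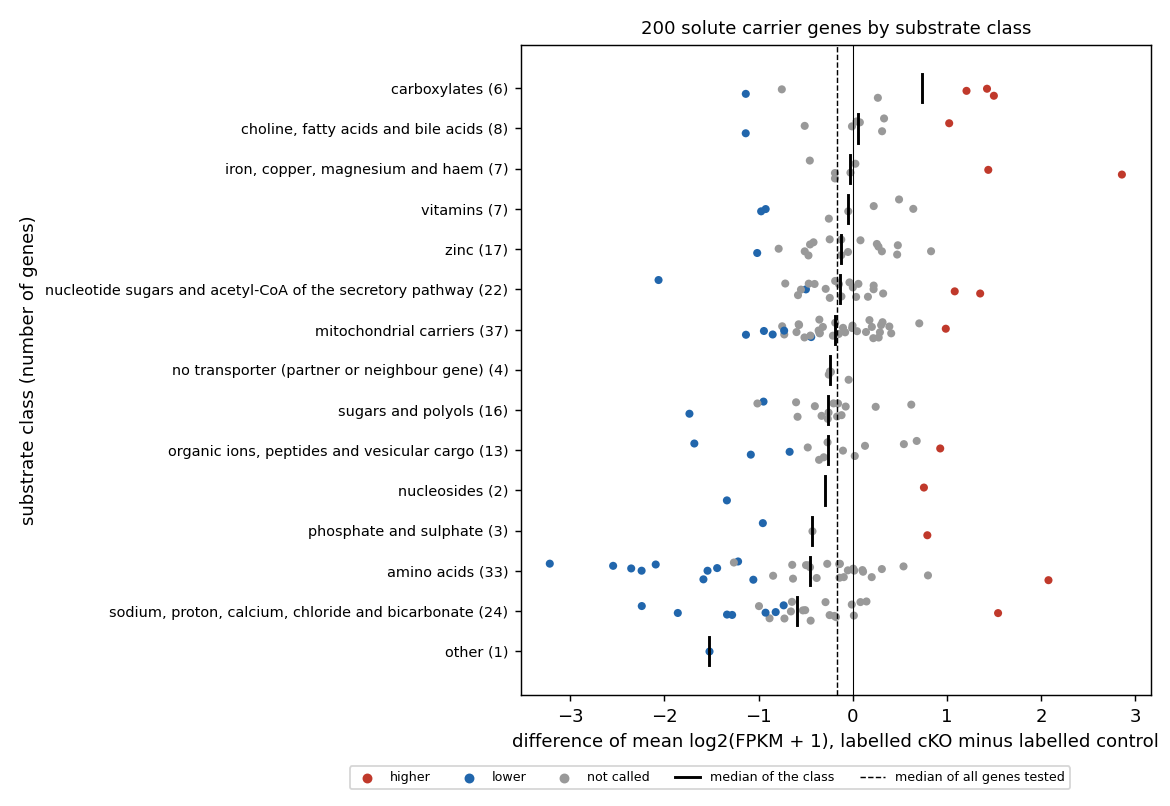
Difference of mean log2(FPKM + 1) between labelled groups for each of the 200 genes (points), by substrate class, with called genes in colour, the median of each class as a bar and the median of all genes tested (-0.17) as a dashed line. The points with the lowest and the highest value are Slc7a8 at -3.22 and Slc40a1 at 2.86, and carboxylate carriers are the class with the highest median (0.74).

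Scaling by the median of ratios moved the median of all genes to 0.01 and that of the members to -0.04. With it 16 members were higher (8%, against 8.60% of all genes) and 30 lower (15%, against 9.08%), so the split of all calls between higher and lower went from 681 and 1576 to 998 and 1054. Leaving out libraries mattered too: of lower calls there were 20, not 37, without control 2 and 21 without control 3, and the 14 higher became 9 without cKO 1. Without cKO 3 there were 15 higher and 33 lower. Shares of all genes without each library are not given, so these counts show nothing particular to the members. In each of these fits no called member changed sign, and 26 of the 51 (9 higher, 17 lower) stayed called without each library in turn. The mean over all libraries admitted 3 members with a mean under 1 FPKM under the control label and 15 with one under the cKO label. Of these 18, 7 were called: Slc16a14 higher, and Slc2a13, Slc4a4, Slc5a10, Slc6a14, Slc15a3 and Slc24a4 lower. The rule itself favours these directions, and the shares by class, family and membrane term below do not leave these genes out. Among the 182 members at 1 FPKM or more in both groups, 13 were higher (7.14%) and 31 lower (17.0%). The share of all genes under that limit in both groups was not counted.

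Levels reached from 1.04 to 263 FPKM, with 5 members at 100 FPKM or more and 88 under 5 FPKM. Since FPKM is scaled to length, these levels can be set side by side. Among these 5, the mitochondrial phosphate carrier Slc25a3 averaged 263 FPKM over the 6 libraries, the adenine nucleotide translocases Slc25a5 and Slc25a4 249 and 119.9 FPKM, the large neutral amino acid exchanger Slc7a5 131.6 FPKM and the neutral amino acid importer Slc38a2 110.4 FPKM. Next came the choline transporter-like gene Slc44a2 at 84.2 FPKM and the peroxisomal carrier Slc25a17 at 65.4 FPKM. Members of the same family with near-identical sequence, such as Slc25a4 and Slc25a5, can share reads, and how the authors' counting split them is not known.

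**Figure D2:**
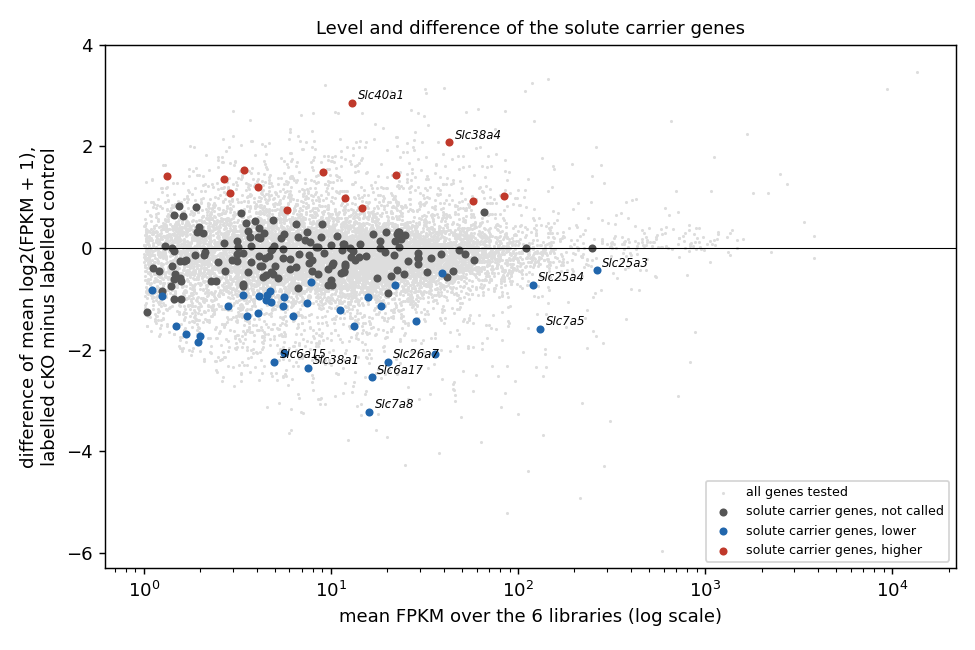
Mean FPKM over the 6 libraries (x axis, log scale) against the difference of mean log2(FPKM + 1), labelled cKO minus labelled control (y axis), for all genes tested (pale) and the 200 solute carriers (14 higher, 37 lower, 149 not called). Called members lie from Slc4a4 at 1.11 FPKM up to Slc25a3 at 263 FPKM, and the pseudocount compresses differences at the left.

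Amino acid carriers were the class with the most falls: 10 of 33 were lower (30.3%, against 13.6% of all genes tested) and 1 was higher (3.03%, against 5.87%), with a median of -0.45 (-0.17 for all genes). Their summed level was 915, 667 and 666 FPKM under control 1, 2 and 3 and 487, 491 and 442 FPKM under the cKO label. Across the fits that left out a library, 9 or 10 were lower and 1 or 2 higher. With median-of-ratios scaling the counts stayed at 10 (against 9.08% of all genes) and 1 (against 8.60%) and the median was -0.26.

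The heteromeric exchangers of large neutral amino acids gave 3 of these falls. Slc7a5 (LAT1), the light chain that takes up leucine and other essential amino acids, stood at 259.7, 172 and 165 FPKM under control 1, 2 and 3 and at 69.9, 69.8 and 53.9 FPKM under cKO 1, 2 and 3. The groups were far apart, with control 1 the highest and cKO 3 the lowest, and the difference was -1.59 (SE 0.20, adjusted p = 0.00286), a 3.08-fold fall of the mean. Slc3a2 (CD98 heavy chain), the partner that brings the light chains to the cell surface, read 64.8, 29.6 and 33.1 FPKM against 15.5, 14.4 and 12.5 FPKM in the same order. It too had its highest value in control 1 and no overlap (-1.44, SE 0.28, adjusted p = 0.0130). Slc7a8 (LAT2), the related light chain of basolateral membranes, had the largest difference of all members on the log2(FPKM + 1) scale. Its values were 46.8, 25.6 and 17.3 FPKM against 3.10, 2.32 and 1.13 FPKM, a 13.7-fold lower mean in the libraries labelled cKO (-3.22, SE 0.38, adjusted p = 0.00234). By the ratio of means alone the uncalled Slc38a3, just inside the limit of 1 FPKM, was further apart (16.7-fold, adjusted p = 0.0574). Other partners of the heavy chain were not called: Slc7a6 differed by -0.14 (SE 0.23), and Slc7a10, which encodes a small neutral amino acid exchanger, by -0.64 (SE 0.33). The glutamate carrier Slc1a3 (0.80, SE 0.38) and the serine carrier Slc1a4 (-0.14, SE 0.20) were not called. The cationic amino acid importer Slc7a1 stood at 33.4, 27.7 and 29.1 FPKM against 29.8, 31.95 and 22.96 FPKM, with overlapping groups (-0.10, SE 0.17).

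Glutamine and small neutral amino acid carriers went in opposite directions. Slc1a5 (ASCT2), a sodium-dependent glutamine exchanger, was lower, at 21.3, 12.2 and 14.99 FPKM under the control label and 6.36, 6.69 and 5.63 FPKM under the cKO label (-1.22, SE 0.22, adjusted p = 0.00966). Slc38a1 (SNAT1), a sodium-coupled importer of glutamine, went from 14.1, 15.1 and 10.5 FPKM to 2.28, 2.36 and 0.892 FPKM, a 7.16-fold fall (-2.35, SE 0.28, adjusted p = 0.00224). Its close relative Slc38a4 (SNAT4) rose: 18.3, 12.7 and 16.5 FPKM under the control label and 62.9, 64.4 and 82.5 FPKM under the cKO label (2.08, SE 0.18, adjusted p = 0.00102). This 4.41-fold rise, with cKO 3 the highest library, was the only one called among the 33 amino acid carriers. Slc38a2 (SNAT2), the third surface carrier of this type and the most abundant, was not called at 137, 92.9 and 102 FPKM against 99.03, 105 and 127 FPKM (0.00, SE 0.18, adjusted p = 0.989). Slc38a9, a lysosomal arginine-sensing carrier that signals to mTORC1, was lower (7.77, 6.78 and 5.94 against 3.06, 2.95 and 2.28 FPKM, difference -1.06, SE 0.20, adjusted p = 0.0109). The summed level of the 8 Slc38 members was 195.4 FPKM under the control label and 221 FPKM under the cKO label. Slc38a4 was the only 1 of the 8 called higher, against 2 lower and 5 not called, and the family median was -0.26. For the 6 Slc7 carriers the sums were 268 and 103.9 FPKM, most of them from Slc7a5, and 4 of the 6 were not called.

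The Slc6 family couples amino acids and transmitters to sodium and chloride. Of its 7 members 4 were lower (57.1%, against 13.6% of all genes) and none higher (against 5.87%). Of the 4 lower, Slc6a14 had a mean under 1 FPKM under the cKO label. Slc6a17 (NTT4), known for loading neutral amino acids into vesicles, stood at 40.7, 21.3 and 25.04 FPKM against 4.74, 4.37 and 2.95 FPKM (-2.54, SE 0.27, adjusted p = 0.00169). Slc6a15 (B0AT2), a carrier of branched-chain amino acids and proline, stood at 8.58, 9.88 and 7.92 FPKM against 1.26, 1.70 and 0.441 FPKM (-2.24, SE 0.27, adjusted p = 0.00238). In both genes the lowest control value was several times the highest cKO value. Slc6a14, a broad importer of neutral and cationic amino acids, was low throughout, with 2.90, 2.68 and 2.50 FPKM against 0.243, 0.471 and 0.113 FPKM (adjusted p = 0.00413). Slc6a6, the taurine transporter, depended on single libraries: it read 64.3, 54.8 and 49.97 FPKM against 21.8, 21.9 and 3.58 FPKM. The difference of -2.09 (SE 0.57, adjusted p = 0.0398) became -1.32 without cKO 3 (adjusted p = 0.00237), and its call was lost without control 1, 2 or 3 (adjusted p = 0.108, 0.113 and 0.0955). The creatine transporter Slc6a8 (-0.45, SE 0.30), the glycine transporter Slc6a9 (-0.50, SE 0.26) and the noradrenaline transporter Slc6a2 (-0.38, SE 0.30) were not called.

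Melanocyte markers fell in the same libraries as these amino acid carriers. Their summed level in cKO 3, 194 FPKM, was the lowest of the 6, and cKO 3 also had the lowest level of all 10 amino acid carriers called lower. It was the lowest library as well for the basal markers Itga6, Itgb4, Col17a1 and Lamb3, but not for Krt5, Krt14, Trp63 or Krt15. Whether melanocytes contributed transcripts of these amino acid carriers was not tested. The melanosome carriers left out by name were also lower: Slc45a2 averaged 46.4 and 5.18 FPKM and Slc24a5 182 and 18.6 FPKM.

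**Figure D3:**
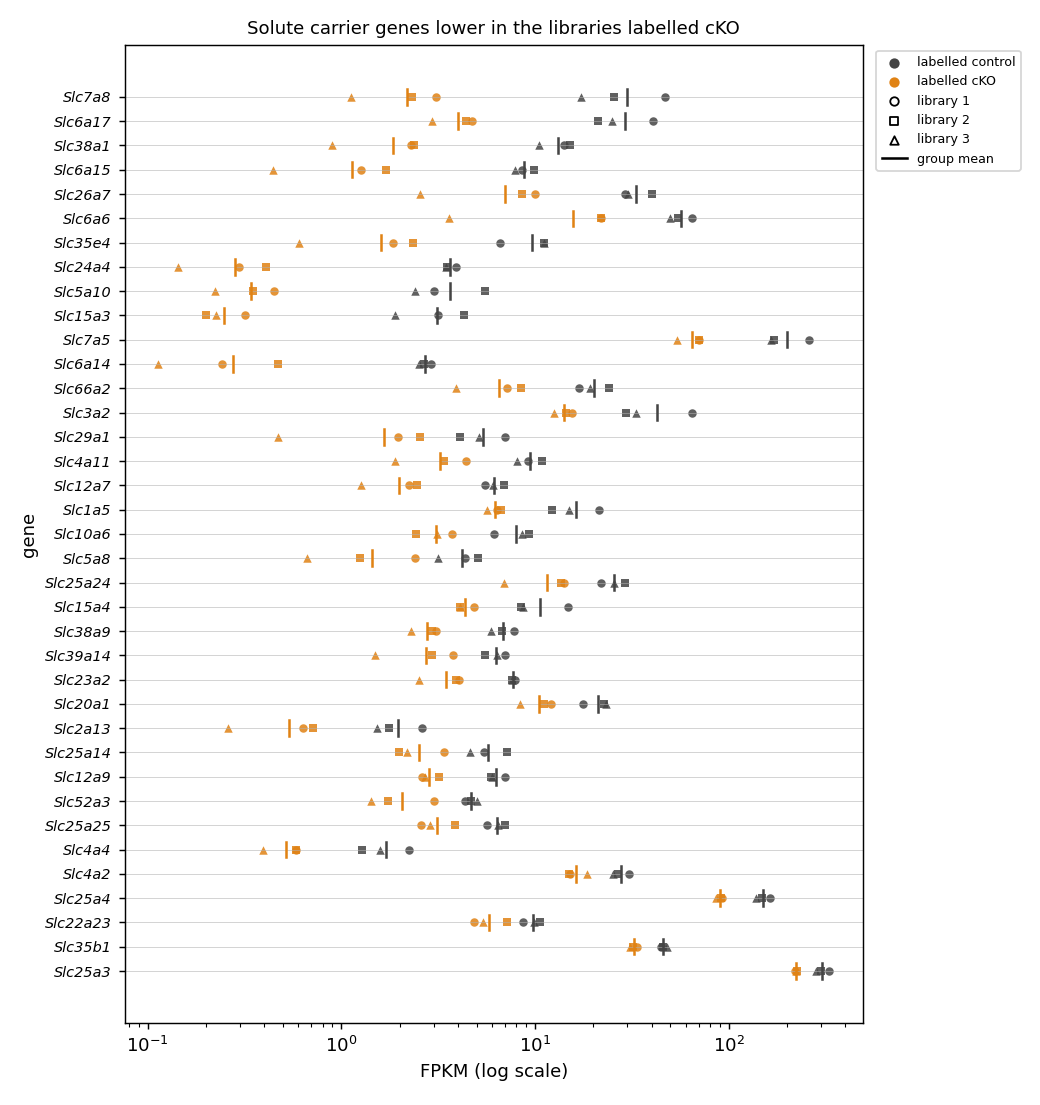
FPKM (log scale) of the 37 solute carriers lower in the libraries labelled cKO, 1 symbol per library (dark for labelled control, orange for labelled cKO) with the group mean as a bar, ordered by the size of the fall from Slc7a8 at the top. In all 37 the 3 cKO values lie below the 3 control values.

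Among carriers of iron, copper, magnesium and haem, an iron exporter and a copper carrier rose. Slc40a1 (ferroportin), the known exporter of cellular iron, rose more than any other member: 2.12, 2.51 and 2.41 FPKM under control 1, 2 and 3 and 27.04, 25.7 and 17.9 FPKM under cKO 1, 2 and 3. The control values lay within a narrow band and every cKO value was several times higher, a 10.04-fold rise of the mean (2.86, SE 0.20, adjusted p = 0.000676), with adjusted p of at most 0.00801 under every alternative. Slc31a2 (CTR2), a copper carrier of endosomes and lysosomes, stood at 9.34, 16.9 and 9.02 FPKM against 31.7, 25.99 and 40.9 FPKM (1.44, SE 0.27, adjusted p = 0.0107). The surface copper importer Slc31a1 (CTR1) was not called, at 21.7, 25.3 and 21.4 FPKM against 23.9, 23.5 and 22.1 FPKM (0.03, SE 0.14). The iron importer Slc11a2 differed by -0.19 (SE 0.21), the haem carrier Slc48a1 by -0.19 (SE 0.20) and the magnesium carrier Slc41a1 by -0.46 (SE 0.22), none of them called. Of the 7 members of this class, 2 were higher (28.6%, against 5.87% of all genes) and none lower (against 13.6%).

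Zinc carriers had 1 call, a fall, among 17 members (5.88% lower, against 13.6% of all genes). Slc39a14 (ZIP14), which also imports iron and manganese, was lower (7.02, 5.50 and 6.39 against 3.77, 2.93 and 1.49 FPKM, difference -1.01, SE 0.27, adjusted p = 0.0375), a call lost without control 1, 2 or 3 or cKO 2 (adjusted p = 0.0942, 0.0868, 0.103 and 0.0805). The abundant ZIP importers were Slc39a7 of the secretory pathway (61.6, 61.6 and 65.97 against 54.5, 53.5 and 51.1 FPKM), Slc39a6 (63.2, 53.4 and 45.5 against 41.2, 45.1 and 63.9 FPKM) and Slc39a1 (45.5, 37.8 and 38.1 against 34.6, 38.2 and 38.2 FPKM). The last 2 overlapped between groups, and Slc39a7 did not overlap but was not called (-0.25, SE 0.11, adjusted p = 0.167). Slc39a2, a ZIP importer known from keratinocytes, was at 0.409, 0.507 and 1.68 against 2.53, 2.52 and 1.58 FPKM (0.83, SE 0.31, adjusted p = 0.0977). It was called higher without control 3 (1.12, adjusted p = 0.0461), under quantile normalization (1.05, adjusted p = 0.0302) and with array weights (0.86, adjusted p = 0.0201). Its exons overlap those of Mettl17 on the same strand, a gene that averaged 27.8 FPKM and was uncalled (-0.08), so some reads cannot be told apart. Among zinc exporters, the surface exporter Slc30a1 differed by -0.45 (SE 0.20) and the Golgi carrier Slc30a5 by 0.31 (SE 0.17). The median of the class was -0.12 and 0.08 after scaling by the median of ratios, so its sign changed with the scaling; the medians of the mitochondrial, nucleotide sugar, vitamin and iron classes did the same (0.00, 0.04, 0.10 and 0.14 after it). Slc39a10, a surface importer, was not called (0.27, SE 0.25). The intestinal importer Slc39a4 stayed under the limit for membership, at a mean of 0.0729 FPKM.

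Carboxylate carriers had 3 higher (50%, against 5.87% of all genes) and 1 lower (16.7%, against 13.6%) of 6. Of the 3 higher, Slc16a14 had a mean under 1 FPKM under the control label, so the rule itself favours its direction. Slc16a6 (MCT7) stood at 3.65, 4.25 and 4.99 FPKM under the control label and 14.3, 15.3 and 12.2 FPKM under the cKO label (1.50, SE 0.18, adjusted p = 0.00247). Its exons overlap those of Amz2 and Arsg on the other strand in GENCODE M21, so without strand some reads cannot be told apart. Both neighbours were uncalled (0.25 and -0.22). Slc16a14, an orphan of the monocarboxylate family, rose from 0.243, 0.361 and 0.192 FPKM to 2.44, 2.31 and 2.42 FPKM (adjusted p = 0.00441). Its control mean of 0.265 FPKM rests on few fragments, 37 in the library with the fewest, and the difference of 1.42 on the log2(FPKM + 1) scale was 2.80 with a pseudocount of 0.1. Slc16a13, another family member, read 2.98, 1.75 and 1.43 FPKM against 5.16, 4.61 and 8.47 FPKM (1.21, SE 0.29, adjusted p = 0.0255), and lost its call without control 2, control 3 or cKO 1 (adjusted p = 0.0895, 0.0845 and 0.0557). The lactate carrier Slc16a1 (MCT1) was uncalled, and variable within both groups (29.1, 8.09 and 10.8 against 12.3, 15.3 and 24.8 FPKM). Slc5a8, a sodium-coupled monocarboxylate importer, was lower (-1.14, SE 0.31, adjusted p = 0.0380), but not without control 1, 2 or 3 or cKO 2 or 3 (adjusted p = 0.0898, 0.120, 0.0618, 0.101 and 0.0656), nor after scaling by the median of ratios, where no carboxylate carrier was lower.

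Carriers of choline, fatty acids and bile acids had 1 higher (12.5%, against 5.87% of all genes) and 1 lower (12.5%, against 13.6%) of 8. Those of organic ions, peptides and vesicular cargo had 1 higher (7.69%) and 3 lower (23.1%) of 13. Slc44a2 (CTL2), of the choline transporter-like family, stood at 51.2, 55.2 and 59.5 FPKM against 116, 109.7 and 114 FPKM, about 2.05-fold higher in the libraries labelled cKO (1.02, SE 0.12, adjusted p = 0.00199). The paralogue Slc44a1 was at 23.4, 19.01 and 19.1 against 24.5, 25.3 and 26.9 FPKM, without overlap and not called (0.31, SE 0.14, adjusted p = 0.170). Slc22a4 (OCTN1), the carrier of the antioxidant ergothioneine, rose from 42.5, 34.9 and 40.4 FPKM to 76.98, 71.1 and 78.1 FPKM (0.93, SE 0.13, adjusted p = 0.00373). The carnitine importer Slc22a5 (OCTN2) overlapped between groups (4.70, 4.95 and 7.64 against 4.01, 5.19 and 3.48 FPKM, difference -0.36, SE 0.24). Slc25a20, of the mitochondrial family, which carries acylcarnitines into mitochondria for fatty acid oxidation, stood at 7.35, 8.58 and 6.99 FPKM against 17.1, 17.4 and 13.9 FPKM (0.99, SE 0.17, adjusted p = 0.00815). Slc10a6, an importer of sulphated steroids, was lower (-1.14, SE 0.23, adjusted p = 0.0133), a call lost without control 2, control 3 or cKO 2 (adjusted p = 0.0606, 0.0528 and 0.0513). The fatty acid transport genes Slc27a1 (-0.01, SE 0.21) and Slc27a3 (0.07, SE 0.30) were uncalled.

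**Figure D4:**
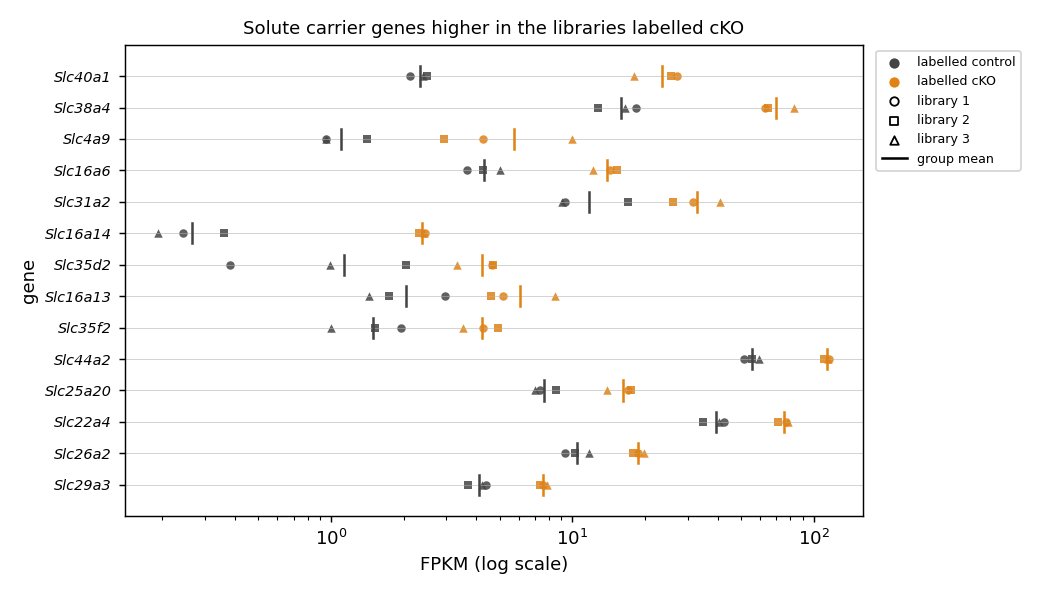
FPKM (log scale) of the 14 solute carriers higher in the libraries labelled cKO, 1 symbol per library (dark for labelled control, orange for labelled cKO) with the group mean as a bar, ordered by the size of the rise up to Slc40a1. In all 14 the 3 cKO values lie above the 3 control values, from 1.80-fold of the mean in Slc26a2 to 10.04-fold in Slc40a1.

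Spinous markers were higher in the same libraries as these 14 genes, and their part in these rises was not tested.

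The Slc25 family, nearly all of it in the inner mitochondrial membrane, had 1 member higher (2.70%, against 5.87% of all genes) and 5 lower (13.5%, against 13.6%) of 37. Slc25a4 (ANT1), which exchanges ADP for ATP, was lower, at 163, 148 and 139 FPKM against 92.02, 91.3 and 86.4 FPKM (-0.73, SE 0.11, adjusted p = 0.00575). Its paralogue Slc25a5 (ANT2), the main form of dividing cells, was not called at 261, 244 and 241 FPKM against 230.2, 230.0 and 286 FPKM (-0.01, SE 0.13). The phosphate carrier Slc25a3 fell from 330.1, 298 and 282 FPKM to 219, 225 and 224 FPKM (-0.44, SE 0.11, adjusted p = 0.0297). That call was lost without control 1, 2 or 3 or cKO 1 or 2 (adjusted p = 0.0652, 0.0855, 0.0607, 0.0976 and 0.0923), and the difference was -0.24 under median-of-ratios scaling (adjusted p = 0.219). The calcium-regulated ATP-magnesium carriers Slc25a24 (25.6 and 11.5 FPKM on average, -1.13, adjusted p = 0.0239) and Slc25a25 (6.36 and 3.10 FPKM, -0.85, adjusted p = 0.0263) were both lower. The exons of Slc25a25 overlap those of Naif1 on the other strand. Slc25a24 lost its call without control 2 or 3 (adjusted p = 0.0923 and 0.0743) and Slc25a25 without control 2, control 3 or cKO 1 (adjusted p = 0.0937, 0.0785 and 0.0963). Slc25a14, an uncoupling protein relative, was lower (-0.94, adjusted p = 0.0331), but not without control 1, 2 or 3 or cKO 2 or 3 (adjusted p = 0.0678, 0.110, 0.0552, 0.109 and 0.0586) or after scaling by the median of ratios. In all, the 5 lower became 1 without control 2 or control 3, and 3 without cKO 1 or cKO 2 and with that scaling. Slc25a17, the peroxisomal carrier of the family, did not overlap (63.9, 41.1 and 43.99 against 66.2, 78.8 and 98.4 FPKM). It was not called (0.71, SE 0.21, adjusted p = 0.0525) but was, among other settings, without control 1 (0.90, adjusted p = 0.0308) and under median-of-ratios scaling (0.90, adjusted p = 0.0403).

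Carriers of sodium, protons, calcium, chloride and bicarbonate had 7 lower (29.2%, against 13.6% of all genes) and 1 higher (4.17%, against 5.87%) of 24, and a median of -0.59. Of the 7 lower, Slc24a4 and Slc4a4 had means under 1 FPKM under the cKO label. After scaling by the median of ratios 5 were lower (20.8%, against 9.08%) and the median was -0.44. Slc26a7, an anion exchanger and chloride channel, had the largest fall on the log2(FPKM + 1) scale, from 29.3, 40.4 and 30.3 FPKM to 9.96, 8.53 and 2.56 FPKM (-2.24, SE 0.40, adjusted p = 0.00945). Slc24a4 (NCKX4), a potassium-dependent sodium-calcium exchanger and a paralogue of the melanosome gene left out above, stood at 3.92, 3.52 and 3.46 FPKM against 0.296, 0.406 and 0.143 FPKM. Its mean was 12.9-fold lower (adjusted p = 0.00197), and the difference of -1.86 was -3.35 with a pseudocount of 0.1. Potassium-chloride cotransporters fell in part: Slc12a7 (KCC4) read 5.53, 6.92 and 6.04 FPKM against 2.23, 2.46 and 1.27 FPKM (-1.28, SE 0.23, adjusted p = 0.00945). Slc12a4 (KCC1) lay at 27.4, 24.03 and 24.3 FPKM against 20.4, 19.5 and 5.55 FPKM, with only cKO 3 far below (-0.88, SE 0.42, adjusted p = 0.179). The importing cotransporter Slc12a2 (NKCC1) was not called (0.08, SE 0.22), and the related Slc12a9 was lower (-0.93, SE 0.19, adjusted p = 0.0138, and 0.0586 without cKO 1).

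Bicarbonate carriers of the Slc4 family had 3 lower (50%, against 13.6% of all genes) and 1 higher (16.7%, against 5.87%) of 6. Of the 3 lower, Slc4a4 had a mean under 1 FPKM under the cKO label. After scaling by the median of ratios 1 was lower (16.7%, against 9.08%) and 1 higher (16.7%, against 8.60%). Slc4a2 (AE2), a chloride-bicarbonate exchanger, read 30.7, 26.8 and 25.4 FPKM against 15.2, 14.98 and 18.5 FPKM (-0.73, SE 0.15, adjusted p = 0.0163), and was not called without control 2, cKO 1 or cKO 2 (adjusted p = 0.0570, 0.0621 and 0.0650) or after scaling by the median of ratios. Slc4a11 was lower (-1.34, SE 0.26, adjusted p = 0.0132, and 0.0616 without control 2). Slc4a4 (NBCe1), a sodium-bicarbonate cotransporter close to the limit of 1 FPKM, was lower at adjusted p = 0.0452 and not called without any single library (adjusted p = 0.0537 to 0.122). Slc4a9 (AE4) was higher, with a wide spread among the libraries labelled cKO (0.952, 1.42 and 0.951 against 4.27, 2.95 and 9.92 FPKM, difference 1.54, SE 0.37, adjusted p = 0.0264). That call was lost without control 1, 2 or 3 or cKO 1 (adjusted p = 0.0727, 0.0696, 0.0812 and 0.0525). The sodium-bicarbonate cotransporter Slc4a7 was not called (-0.73, SE 0.38). The exons of Slc4a2 overlap those of Fastk on the other strand. None of the 6 carriers of the Slc9 family, which exchanges sodium for protons, was called. The scaffold genes Slc9a3r1 and Slc9a3r2 make, with Slc4a1ap and Slc7a6os, 4 members that are no carriers, none of them called. The 7 lower of the whole class became 4 without control 2 or cKO 1.

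Phosphate, sulphate and vitamin carriers moved in small numbers. The phosphate importer Slc20a1 (PiT1) was lower (17.7, 22.6 and 23.3 against 12.1, 11.1 and 8.32 FPKM, difference -0.96, SE 0.19, adjusted p = 0.0138; 0.0627 without control 2 and 0.0566 without control 3), while Slc20a2 (PiT2) did not overlap and was not called (-0.43, SE 0.19). The sulphate importer Slc26a2, which supplies proteoglycan sulphation, rose from 9.32, 10.2 and 11.7 FPKM to 18.6, 17.8 and 19.7 FPKM (0.79, SE 0.15, adjusted p = 0.0124). Slc23a2 (SVCT2), the vitamin C importer, was lower with tight control values (7.86, 7.57 and 7.63 against 4.04, 3.90 and 2.50 FPKM, difference -0.97, SE 0.21, adjusted p = 0.0168; 0.0634 without control 2 and 0.0568 without control 3). The riboflavin carrier Slc52a3 was lower (-0.92, adjusted p = 0.0348), but not without control 1, 2 or 3 or cKO 2 or 3 (adjusted p = 0.0642, 0.0960, 0.103, 0.110 and 0.0587). The folate carriers Slc19a1 (0.22, SE 0.21) and Slc46a1 (0.64, SE 0.26) and the multivitamin importer Slc5a6 (0.49, SE 0.27) were uncalled. In all 2 of 7 vitamin carriers were lower (28.6%, against 13.6% of all genes) and none higher (against 5.87%).

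Of 16 sugar and polyol carriers 2 were lower (12.5%, against 13.6% of all genes) and none higher (against 5.87%). Both lower genes had a mean under 1 FPKM under the cKO label, so the rule itself favours their direction. The levels of the 16 summed to 79.6 FPKM under the control label and 61.4 FPKM under the cKO label. Slc2a13, a proton-coupled myo-inositol importer, averaged 1.97 and 0.536 FPKM (-0.95, adjusted p = 0.0359) and was not called without any single library (adjusted p = 0.0613 to 0.0894). Slc5a10, a sodium-coupled sugar carrier, read 3.00, 5.50 and 2.40 FPKM against 0.451, 0.352 and 0.222 FPKM (-1.73, SE 0.29, adjusted p = 0.00697). Its exons overlap those of Grap on the other strand, which was itself lower (-1.21), and those of Fam83g, which was uncalled (0.14). The sugar efflux gene Slc50a1 was the most abundant of the class, at 24.6, 20.3 and 18.5 against 16.2, 15.6 and 10.03 FPKM, with no overlap and no call (-0.59, SE 0.21, adjusted p = 0.0929).

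The Slc35 family and Slc33a1 were classed together as carriers of nucleotide sugars and acetyl-CoA of the secretory pathway. The class follows the family and includes orphans and an ATP carrier, so its counts do not describe nucleotide sugar transport alone. Of these 22, 2 were higher (9.09%, against 5.87% of all genes) and 2 lower (9.09%, against 13.6%). Slc35e4, an orphan of the family, fell from 6.58, 11.1 and 11.2 FPKM to 1.86, 2.33 and 0.608 FPKM (-2.06, SE 0.33, adjusted p = 0.00610). Slc35b1, which supplies ATP to the endoplasmic reticulum, fell by less (44.5, 45.6 and 47.8 against 33.7, 32.2 and 30.9 FPKM, difference -0.50, SE 0.12, adjusted p = 0.0266). It lost its call without control 2 or 3 or cKO 1 or 2 (adjusted p = 0.0779, 0.0909, 0.0749 and 0.0923), and stood at -0.30 under median-of-ratios scaling (adjusted p = 0.123). Slc35d2, a Golgi carrier of UDP-N-acetylglucosamine, rose from 0.381, 2.04 and 0.988 FPKM to 4.63, 4.71 and 3.32 FPKM (1.35, SE 0.32, adjusted p = 0.0239), a call that ended on leaving out control 1, control 3 or either of cKO 1 and 2 (adjusted p of at most 0.0779). Slc35f2 rose from 1.95, 1.53 and 1.00 FPKM to 4.27, 4.92 and 3.54 FPKM (1.08, SE 0.23, adjusted p = 0.0177), a call that ended on leaving out control 2, control 3 or either of cKO 1 and 2 (adjusted p of at most 0.0758). The CMP-sialic acid carrier Slc35a1 did not overlap (3.95, 4.88 and 4.45 against 2.51, 3.02 and 1.53 FPKM) and was not called (-0.72, SE 0.24, adjusted p = 0.0691). The acetyl-CoA carrier Slc33a1 was not called (0.06, SE 0.20).

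Lysosomal and nucleoside carriers gave the remaining calls. Both lysosomal peptide and histidine carriers of the Slc15 family were lower. Slc15a4, needed for signals from endosomal nucleic acid receptors, stood at 14.8, 8.48 and 8.62 FPKM against 4.81, 4.11 and 4.09 FPKM (-1.08, SE 0.24, adjusted p = 0.0193, and 0.0619 without cKO 2). Slc15a3 stood at 3.16, 4.31 and 1.90 FPKM against 0.317, 0.200 and 0.225 FPKM, a 12.6-fold lower mean (adjusted p = 0.00631), and its exons overlap those of Tmem132a on the other strand, which was uncalled (0.52). The surface peptide importer Slc15a2 varied from 8.98 to 30.1 FPKM with overlapping groups (0.13, SE 0.45). The lysosomal nucleoside carrier Slc29a3 (ENT3) was higher (4.37, 3.69 and 4.21 against 7.56, 7.33 and 7.85 FPKM, difference 0.75, SE 0.17, adjusted p = 0.0214), and the surface nucleoside carrier Slc29a1 (ENT1) lower (6.98, 4.11 and 5.13 against 1.97, 2.55 and 0.470 FPKM, difference -1.34, SE 0.36, adjusted p = 0.0376). Slc29a3 lost its call on leaving out control 2 or 3 or cKO 1 or 2 (adjusted p = 0.0824, 0.0611, 0.0803 and 0.0765) and Slc29a1 without control 1, 2 or 3 or cKO 1 (adjusted p = 0.103, 0.0763, 0.0965 and 0.0631). Slc66a2, a membrane protein related to lysosomal amino acid exporters, was lower (16.8, 24.1 and 19.3 against 7.14, 8.43 and 3.91 FPKM, difference -1.53, SE 0.27, adjusted p = 0.00895). The orphan Slc22a23 was called at adjusted p = 0.0487 and not without any single library (adjusted p = 0.0600 to 0.157).

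By the annotation terms in the authors' table, which the choice of members did not use, members can be set beside other genes of the same membrane. Of 101 members with the plasma membrane term, the largest, 22 were lower (21.8%) and 10 higher, against 430 (19.8%) and 178 of 2168 other genes. The basolateral plasma membrane term had 12 lower (37.5%) and 2 higher of 32 members, against 21 (20.2%) and 8 of 104 other genes, and the apical term 10 (27.0%) and 2 of 37, against 34 (20.4%) and 18 of 167. The endosome term had 6 lower (37.5%) and 1 higher of 16, against 101 (19.1%) and 31 of 529, and the lysosomal membrane term 4 (33.3%) and 1 of 12, against 25 (24.3%) and 8 of 103. The inner mitochondrial membrane term had 5 lower (13.2%) and 1 higher of 38, against 25 (8.01%) and 25 of 312. None of 6 members with the Golgi membrane term and none of 3 with that of the endoplasmic reticulum was called, against 15 lower and 15 higher of 144 and 31 lower and 25 higher of 292 other genes. Many members carry several of these terms, so the counts are not independent, and the differences between shares were not tested.

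Transport genes outside these families were read from 4 lists. Of 38 tested genes of the solute carrier superfamily under other symbols, 2 were higher (5.26%, against 5.87% of all genes) and 4 lower (10.5%, against 13.6%): the ammonium carrier Rhbg rose from a mean of 9.11 to 47.1 FPKM (2.29, adjusted p = 0.00341) and the melanosome gene Oca2 fell (-3.16, adjusted p = 0.000747). Of 20 ABC transporters 1 was higher (5%) and 4 lower (20%), led by the drug exporter Abcb1b (7.98 and 0.613 FPKM, -2.46, adjusted p = 0.00116) and, upwards, the mitochondrial transporter Abcb10 (1.09, adjusted p = 0.0127). Among 13 ion pump genes 1 was higher (7.69%) and 2 lower (15.4%), both of the latter β subunits of the sodium pump, Atp1b1 (-1.37, adjusted p = 0.00536) and Atp1b2 (-1.26, adjusted p = 0.0132). Among 15 partner and regulator genes 2 were higher (13.3%) and 3 lower (20%). The ubiquitin protease Usp2 fell (-1.22, adjusted p = 0.00962).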

How the data were processed

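RNA-seq was read from 6 libraries of sorted integrin α6-positive epidermal cells, 3 per label. Per the submitters' processing notes, fastp, HISAT2 and HTSeq were used with GRCm39; versions, annotation release, strand setting and gene filter were not given in the sources used here. The authors deposited FPKM per gene. FPKM is normalized for length and depth, so a gene that takes a large share of a library lowers the others. The steps between low FPKM values gave back library totals of 31578875 to 36027550 and, with lengths inferred from the same steps, whole fragments for 17024 of 17025 genes (within 1e-09).

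Groups were taken from the labels. The main test was limma 3.58.1 (R 4.3.3) with a mean-variance trend on log2(FPKM + 1), group as the only term, over the 11603 genes whose mean reached 1 FPKM, with Benjamini-Hochberg adjustment and a threshold of 0.05. A fold change on that scale understates the change of low genes. The code was tested on simulated data. Alternatives were other pseudocounts, filters, scalings, variance models, a replicate block, limma-voom on the recovered fragments and leaving out each library. Promoter sequences came from RefSeq on GRCm38.p6 and exon overlaps from GENCODE M21, where 197 of 200 members were found.

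The members, substrate classes and gene lists were chosen with earlier results of these data known. Named were called members, the 10 most abundant, those beside the limit and a list of carriers known from skin or metabolism; for each other list, the 2 genes with the smallest adjusted p. Uncalled members outside that rule (Slc6a2, Slc6a8, Slc6a9, Slc7a1, Slc7a6, Slc7a10, Slc12a4, Slc15a2, Slc19a1, Slc20a2, Slc22a5, Slc27a1, Slc27a3, Slc33a1, Slc41a1, Slc46a1, Slc48a1 and Slc50a1) were chosen after their values were seen. Of the listed carriers, Slc2a3, Slc2a12, Slc11a1, Slc39a4 and Slc46a2 were under 1 FPKM and were not tested. Values of 2 genes that this rule names are not reported here.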

Additional observations from a re-analysis of the deposited data

How the results depend on the processing

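Over 18 alternatives no called member changed sign, and 26 of the 51 kept their call in each alternative in which they were tested. The 14 higher became 9 with a filter at a mean of 5 FPKM, which tests 112 members, and 24 with array weights. Lower calls went from 37 up to 55 with array weights and down to 21 with that filter and 22 with a replicate block. Shares of all genes under these settings are not given. The median of -0.22 became -0.042 with scaling by the median of ratios, -0.049 by the upper quartile, -0.022 with quantile normalization and -0.058 with limma-voom on recovered fragments. Leaving out each library in turn gave 9 to 15 higher, 20 to 33 lower and medians of -0.27 to -0.17. The cause of these shifts was not tested, apart from the fewer genes and samples that a stricter filter or a left-out library leaves. The replicate block gave 11 higher and 22 lower. Deviations of same-numbered libraries correlated at -0.31, 0.08 and -0.26, so the numbers are shared without a sign of pairing. With a pseudocount of 0.1 the differences of Slc16a14 and Slc24a4 went from 1.42 to 2.80 and from -1.86 to -3.35.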
